A study of Mus musculus with 18 samples.

Results

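Ly6G+ granulocytes (GN) were set against dendritic cells (DC) of the same organ, the spleen, in mice that had received interferon gamma (IFNg). The comparison used 4 of the 18 arrays of the series, 2 titled as GN and 2 titled as DC, and every one of the 19752 genes named from 1 probe set. All 18 arrays came from male C57BL/6 (B6) mice aged 6 weeks, 2 h after 10000 U of IFNg given under the skin, and GN and DC shared genetic background, treatment, time, sex and age. The labels give the gate of GN as Ly6G+ and that of DC as CD11c+ MHCII+ Flt3+, both sorted on a FACSAria instrument into TriZol, a reagent for RNA extraction. The other 14 arrays held 7 further populations (MF, peritoneal macrophages, and 6 lymphoid populations of the spleen, NK, NKT, T4, T8, Tgd and Treg), which served here for the estimate of the spread and for the choice of cell-restricted genes. Untreated mice were not analysed here, so that a difference between GN and DC is a difference between cell types of treated animals and not a response to IFNg. Separate animals are not named for the arrays of a population in the labels. The p-values therefore speak only of how far these arrays differ, and that spread could be technical.

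Granulocytes of the mouse spleen that carry Ly6G are neutrophils, short-lived phagocytes that leave the bone marrow with their granules already filled and kill microbes with granule proteins, oxidants and released chromatin. Dendritic cells take up antigen, load its peptides on MHC class II molecules and show them to CD4+ T cells. They depend on the cytokine receptor Flt3 and on the transcription factors Irf8, Batf3, Irf4 and Zbtb46. IFNg binds the receptor chains Ifngr1 and Ifngr2 on both cell types and signals through the kinases Jak1 and Jak2 to Irf1 and to genes of antigen presentation and host defence.

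Promoters of 6 genes are shown here as examples from the granule, class II and interferon-inducible lists, because letters bound by factors of those programmes occur in them, each as the 250 bases before the transcription start on the gene's strand (RefSeq, build GRCm38.p6). Ltf and Lcn2 encode granule proteins and were brighter in GN. Their promoters are at chr9:111019042-111019291 (+ strand) and chr2:32387740-32387989 (- strand), and capitals mark the letters TTGCNNAA, a core of C/EBP sites, on either strand.
Ltf: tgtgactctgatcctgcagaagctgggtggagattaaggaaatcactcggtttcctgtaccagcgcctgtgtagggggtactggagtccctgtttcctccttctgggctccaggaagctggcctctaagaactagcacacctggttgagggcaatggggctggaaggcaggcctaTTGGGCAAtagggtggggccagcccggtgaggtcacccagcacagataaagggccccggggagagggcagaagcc
Lcn2: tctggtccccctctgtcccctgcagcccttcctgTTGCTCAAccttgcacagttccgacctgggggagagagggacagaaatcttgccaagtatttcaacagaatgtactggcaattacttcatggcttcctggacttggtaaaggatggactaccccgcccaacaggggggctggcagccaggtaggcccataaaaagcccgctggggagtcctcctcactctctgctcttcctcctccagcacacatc
H2-Aa and H2-Eb1 encode chains of MHC class II and were dimmer in GN. Their promoters are at chr17:34287824-34288073 (- strand) and chr17:34305617-34305866 (+ strand), and capitals mark ATTGG or its complement, the core of the Y box of class II promoters.
H2-Aa: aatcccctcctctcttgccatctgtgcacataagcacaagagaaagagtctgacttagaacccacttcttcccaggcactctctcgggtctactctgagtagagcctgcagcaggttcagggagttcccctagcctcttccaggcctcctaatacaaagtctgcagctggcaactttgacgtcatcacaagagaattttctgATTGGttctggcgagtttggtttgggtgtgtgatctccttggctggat
H2-Eb1: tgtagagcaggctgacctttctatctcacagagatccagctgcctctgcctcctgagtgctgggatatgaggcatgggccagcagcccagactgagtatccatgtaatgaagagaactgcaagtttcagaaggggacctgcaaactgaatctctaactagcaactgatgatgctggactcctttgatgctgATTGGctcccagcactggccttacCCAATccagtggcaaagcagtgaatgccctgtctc
Rsad2 and Irgm1 are interferon-inducible. Rsad2 was brighter in GN and Irgm1 did not pass the threshold, and capitals in their promoters, at chr12:26456453-26456702 (- strand) and chr11:48871421-48871670 (- strand), mark GAAA, any 2 bases and GAAA, the core of an interferon-stimulated response element, on either strand. The matches in the promoter of Irgm1 overlap each other.
Rsad2: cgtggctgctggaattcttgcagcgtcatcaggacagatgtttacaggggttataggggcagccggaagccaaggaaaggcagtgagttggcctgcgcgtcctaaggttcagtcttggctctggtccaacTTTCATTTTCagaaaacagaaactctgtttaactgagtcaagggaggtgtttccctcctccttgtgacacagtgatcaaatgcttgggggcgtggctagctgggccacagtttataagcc
Irgm1: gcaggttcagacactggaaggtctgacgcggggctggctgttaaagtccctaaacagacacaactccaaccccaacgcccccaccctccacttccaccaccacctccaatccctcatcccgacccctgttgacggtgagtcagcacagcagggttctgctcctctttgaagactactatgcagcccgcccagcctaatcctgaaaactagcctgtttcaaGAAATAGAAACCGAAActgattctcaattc

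Over windows of 300 bases, from 250 before to 50 after the start, the shares with these letters set the scale for the examples. The table of RefSeq windows held 15483 of the 19752 genes tested, with 19019 windows. The C/EBP letters were found in 25% of 20 windows of neutrophil granule genes and in 26.8% of 41 windows of neutrophil surface and cytosolic genes, against 10.8% of all 32851 windows. Such a share was not particular to neutrophil genes, with 27.3% of 11 windows of NK cell markers. Shares of the lists ran from 0% of 14 windows of integrins and selectin ligands to 40% of 5 windows of plasmacytoid dendritic cell markers. The Y box letters were found in 68.8% of 16 windows of class II presentation genes, against 37.4% of all windows, where so short a motif is common. They were also found in 64.7% of 17 windows of class I presentation genes. Shares of the lists ran from 7.14% of 14 windows of integrins and selectin ligands to 85% of 20 windows of cell cycle genes. The response element was found in 46.3% of 41 windows of type I interferon-stimulated genes and in 6 of 7 windows of interferon-inducible GTPase genes, against 3.44% of all windows. Among all called genes the shares lay near those of all windows. The C/EBP letters were found in 11.4% of windows of genes higher in GN and 8.6% of those lower in GN, and the response element in 4.36% and 3.22% of them. GAGGAAG, letters bound by PU.1, was found in 55% of the windows of granule genes, against 13.6% of all windows. Over the lists its share ran from 0% of 10 windows of B cell markers to 80% of 5 windows of erythroid and platelet markers. TTCNNNGAA, a gamma-activated sequence, was found in 17.1% of the windows of type I interferon-stimulated genes, against 8.3% of all windows. Its share ran from 0% of 14 windows of integrins and selectin ligands to 42.9% of 7 windows of interferon-inducible GTPase genes. These matches are descriptions of sequence, and no binding was measured.

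The GN and DC arrays differed at 3336 of 19752 genes, or 16.9%, at an adjusted p under 0.05 in limma and at least a 2-fold difference. Of these, 1139 genes (5.77% of those tested) were higher in GN and 2197 (11.1%) were lower. Levels are given as log2 intensity per array, and differences as the GN mean minus the DC mean on the log2 scale ± SE from limma. The median difference over all genes was 0.18, with -0.08 among the brighter 9876 genes and 0.25 among the dimmer ones. The largest differences lay on the side of DC, where 73 genes were at least 16-fold lower in GN and 22 at least 32-fold, against 6 genes at least 16-fold higher in GN. Array medians of the 4 arrays lay between 142.58 and 148.39 in linear intensity. Pearson's r over probe sets was 0.9933 between the GN arrays and 0.9911 between the DC arrays. It was 0.8953 and 0.8927 between the GN arrays and DC replicate 1, and 0.9076 and 0.9064 between the GN arrays and DC replicate 2.

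**Figure D1:**
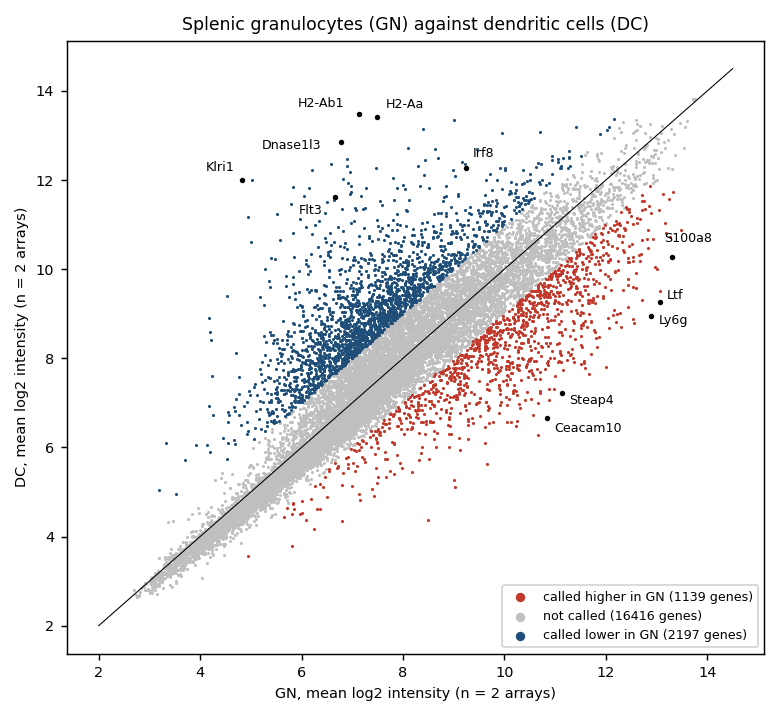
Mean log2 intensity of every gene in GN (x axis) and DC (y axis), 2 arrays each, with the line of equal level. Red points mark the 1139 genes called higher in GN and blue points the 2197 called lower, and H2-Ab1, with a difference of -6.35, lies farther from the line than Ceacam10, with 4.17.

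The gate genes separated the populations in the direction of the sort. H2-Ab1, which encodes the beta chain of the class II molecule I-A, stood at 7.18 and 7.08 in GN, against 13.49 and 13.48 in DC. The difference of -6.35 ± 0.28 (adjusted p = 6.89e-12) is 81.7-fold. Whether its GN level was above background was not tested. Flt3 stood at 6.77 and 6.55 in GN and 11.68 and 11.54 in DC (difference -4.95 ± 0.12, adjusted p = 9.63e-15). Itgax, which encodes CD11c, was lower by less, with 10.18 and 9.85 in GN against 12.35 and 12.19 in DC. Ceacam10, a cell adhesion gene of granulocytes, stood at 10.91 and 10.75 in GN and at 6.47 and 6.85 in DC (4.17 ± 0.16, adjusted p = 1.97e-12).

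The gene of the granulocyte gate was not equally dim on both DC arrays. Ly6g stood at 12.79 and 12.99 in GN, against 7.63 on DC replicate 1 and 10.26 on DC replicate 2. GN and DC did not overlap, and the difference was 3.95 ± 0.48 (adjusted p = 2.02e-06), but it was 5.26 against replicate 1 and 2.63 against replicate 2. This SE pools the spread within all populations, whereas the SD of Ly6g was 1.86 between the DC arrays and 0.14 between the GN arrays. The SE and p-value are thus smaller than the DC arrays alone would give. The same holds for granulocyte genes below whose DC arrays lay far apart, such as Ltf, with a DC SD of 1.89. DC replicate 2 was at least 2-fold above replicate 1 at 141 genes and at least 2-fold below it at 2, whereas GN replicate 2 was at least 2-fold above its partner at 6 genes and below it at 12. A single array cannot be tested against another, so most granulocyte genes below are given for each DC array. Some are given only as the difference from the DC mean. Calls were repeated with 1 DC array left out. With DC replicate 1 alone 3426 genes (17.3%) were called, 1235 of them higher in GN (6.25%) and 2191 lower (11.1%). With DC replicate 2 alone 3246 genes (16.4%) were called, 1069 of them higher (5.41%) and 2177 lower (11%). Called in the same direction with both were 1026 higher and 2003 lower genes, while 208 genes were higher in GN with DC replicate 1 alone and 43 with DC replicate 2 alone. In sorted bulk cells, fewer cells of a type and less RNA per cell cannot be told apart.

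Genes of the granule protein list were higher in GN at 21 of 24 measured members, with none lower and a median difference of 2.34. The list also held Ltb4r1, a leukotriene receptor gene, and Serpinb1a, a protease inhibitor gene. The median was 2.60 against DC replicate 1 and 2.04 against DC replicate 2. Ltf, which encodes lactoferrin, an iron-binding protein of specific granules, had the largest difference of the list, 3.80 ± 0.50 (adjusted p = 4.82e-06). It stood at 12.89 and 13.24 in GN, against 7.92 on DC replicate 1 and 10.60 on DC replicate 2. Camp, the precursor of the antimicrobial peptide cathelicidin, had 12.11 and 12.49 in GN and 7.63 and 9.78 in DC. The collagenase gene Mmp8 had 12.40 and 12.68 in GN and 7.69 and 10.09 in DC. On all 3 genes DC replicate 2 was over 2 log2 units brighter than replicate 1.

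Genes of the azurophil granules, which are made early in neutrophil development, were also higher in GN. The gene of myeloperoxidase, Mpo, stood at 9.13 and 9.39 in GN and at 6.72 and 7.99 in DC (1.91 ± 0.24). Elane, the neutrophil elastase gene, stood at 8.55 and 9.12 in GN and 6.47 and 7.68 in DC (1.76 ± 0.25). Differences for the serine protease genes Prtn3 and Ctsg were 1.58 ± 0.16 and 1.65 ± 0.20. Olfm4, a gene of a subset of specific granules, had a difference of 3.68 ± 0.21, with 10.52 and 10.82 in GN and 6.51 and 7.47 in DC. The GN arrays themselves differed on Serpinb1a, a protease inhibitor gene, with 9.46 and 10.22.

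Lcn2 and Ngp were the granule genes whose call rested on 1 DC array. Lcn2 encodes lipocalin-2, which binds bacterial siderophores, and Ngp a neutrophilic granule protein. For Lcn2 the GN levels were 13.26 and 13.39 and the DC levels 10.78 and 12.66, a difference of 1.60 ± 0.49 (adjusted p = 0.0105). It was 2.54 against replicate 1 (adjusted p = 0.000149) and 0.66 against replicate 2 (adjusted p = 0.225). Ngp behaved likewise, with 13.16 and 13.31 in GN and 10.77 and 12.38 in DC. Its difference was 2.47 against replicate 1 (adjusted p = 0.001) and 0.86 against replicate 2 (adjusted p = 0.188). The 3 granule genes that were not called were Lyz2, the lysozyme gene of myeloid cells in general, with 13.26 and 13.45 in GN and 12.09 and 13.03 in DC, the protease gene Adam8, just short of 2-fold at 0.95 ± 0.11, and Arg1, an arginase gene, with 6.38 and 6.42 in GN and 6.27 on both DC arrays.

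Surface and cytosolic genes of mature neutrophils were higher in GN at 41 of 44 measured members, with none lower and a median of 2.60. S100a8 and S100a9 encode the subunits of calprotectin, a calcium-binding and metal-binding protein that fills the neutrophil cytosol. S100a8 stood at 13.23 and 13.36 in GN, against 9.26 on DC replicate 1 and 11.31 on replicate 2. S100a9 stood at 13.13 and 13.24 in GN, against 9.95 and 11.64 in DC. The differences were 3.01 ± 0.43 and 2.39 ± 0.32 (adjusted p = 1.32e-05 and 7.77e-06).

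Receptors that guide and sustain neutrophils followed the same order of arrays. Csf3r, the receptor of the neutrophil growth factor G-CSF, had 13.45 and 13.53 in GN and 10.03 and 11.72 in DC. The chemokine receptor gene Cxcr2 had 12.26 and 12.65 in GN and 9.54 and 10.76 in DC, a difference of 2.30 ± 0.31. Its close relative Cxcr1 had 9.41 and 9.49 in GN and 6.92 and 7.05 in DC (2.47 ± 0.13, adjusted p = 5.25e-11). On Cxcr1 the DC arrays differed by 0.13, against 1.22 on Cxcr2. Padi4, the enzyme that citrullinates histones when neutrophils release chromatin, stood at 10.90 and 10.86 in GN, against 6.35 and 7.77 in DC (3.82 ± 0.27). Steap4, a metalloreductase gene, had 11.05 and 11.23 in GN and 6.65 and 7.77 in DC (3.93 ± 0.24).

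Some granulocyte genes were dim on both DC arrays. Stfa2, a stefin that inhibits cysteine proteases, stood at 8.56 and 8.44 in GN and at 4.37 and 4.39 in DC (4.12 ± 0.14, adjusted p = 2.28e-13). Dgat2, an enzyme of triglyceride synthesis, stood at 11.29 and 11.04 in GN and at 7.49 and 7.97 in DC (3.43 ± 0.15). G0s2, an inhibitor of lipolysis, stood at 9.22 and 9.76 in GN and 7.48 and 7.47 in DC. On these genes and Ceacam10 the DC arrays differed by at most 0.48. Not called were Selplg, the selectin ligand gene, at 0.98 ± 0.09, S100a11 at 0.35 ± 0.11 and Tgm3 at 0.36 ± 0.15.

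**Figure D2:**
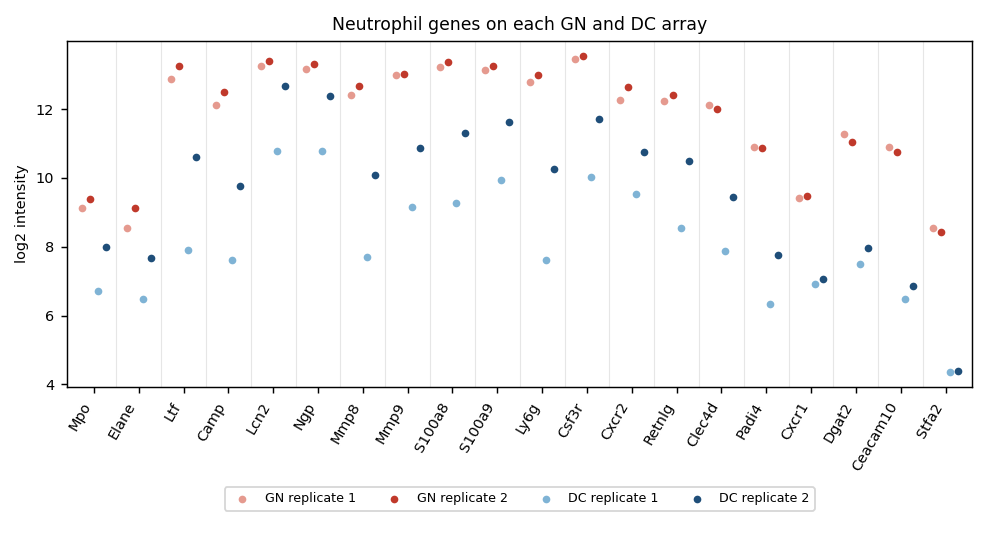
Log2 intensity of 20 neutrophil genes on the 2 GN arrays (light and dark red) and the 2 DC arrays (light blue for replicate 1, dark blue for replicate 2). For Ltf the GN arrays stand at 12.89 and 13.24 and the DC arrays at 7.92 and 10.60, while for Stfa2 the GN arrays stand at 8.56 and 8.44 and the DC arrays together at 4.37 and 4.39.

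Both neutrophil lists together held 67 measured genes, of which 61 were higher in GN. All 67 had both GN arrays above both DC arrays, as did 10477 of all 19752 genes. Against DC replicate 1 alone 62 were called and against DC replicate 2 alone 59. DC replicate 2 was brighter than replicate 1 at 65 of the 67, and at least 2-fold brighter at 34, whereas it was brighter at 47.2% of all genes. The members were listed because neutrophils express them, so their direction against DC is a description of the sort and not a finding. The size of the gap on each DC array is what varies.

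A set of granulocyte-restricted genes was chosen without the DC arrays, as those whose GN mean was at least 16-fold above the highest mean of the other 7 populations. It held 51 genes, 21 of them on a neutrophil list. Of the 51 genes, 46 were higher in GN than in DC and none lower. The choice used the GN arrays, so this direction is a description and not a finding. The median difference was 3.84 against DC replicate 1 and 2.39 against DC replicate 2. On the linear scale, DC replicate 1 carried a median of 6.93% of the GN level (quartiles 5.09% and 13.5%) and DC replicate 2 a median of 19.1% (quartiles 13.2% and 29.2%). With the lymphoid median subtracted from every value the medians were 5.41% and 17.8%. Replicate 2 was the brighter at 49 of the 51 genes and at least 2-fold brighter at 31. Ltf reached 2.81% of its GN level on replicate 1 and 18% on replicate 2, Ly6g 2.6% and 16.1%, and S100a8 6.07% and 25.2%. Ceacam10 reached 4.86% and 6.33% and Stfa2 5.71% and 5.78%, so that the ratio between the DC arrays was not the same for every granulocyte gene.

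The 5 granulocyte-restricted genes that were not called fell into 2 kinds, and they are named here after their values were seen. Plbd1, a phospholipase B-like protein, stood at 12.17 and 12.44 in GN and at 12.63 and 12.65 in DC. Gpr141, an orphan receptor gene, stood at 11.55 and 11.41 in GN and 11.87 and 11.88 in DC. Ptgs2, the inducible cyclooxygenase, had 12.03 and 11.66 in GN and 11.71 and 11.11 in DC, and Gm9733 had 10.53 and 10.41 in GN and 9.81 and 9.75 in DC. These 4 genes and Il1b also met the mirror rule for dendritic-restricted genes, so they were bright in GN and DC alike and at least 16-fold dimmer in each of the other 7 populations. The fifth, Ppbp, a platelet chemokine gene, stood at 9.27 and 10.36 in GN, against 6.63 on DC replicate 1 and 10.05 on DC replicate 2.

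**Figure D3:**
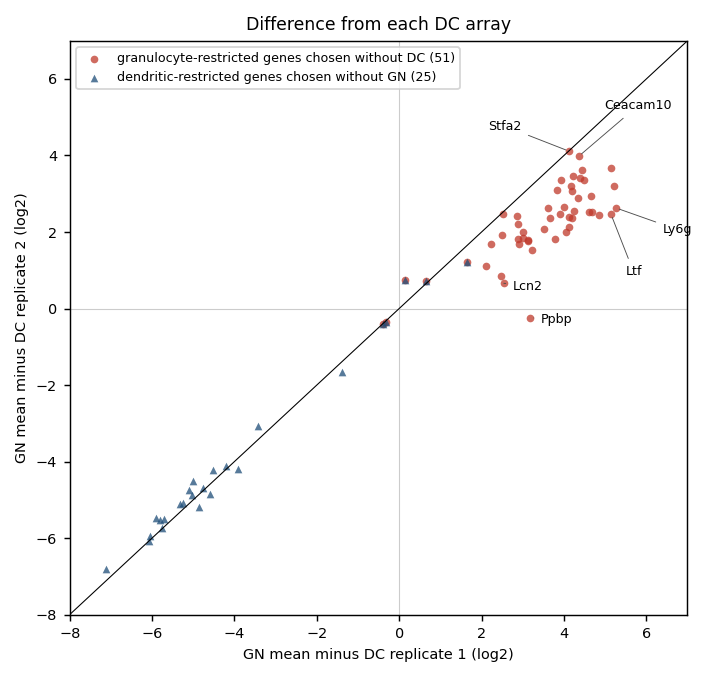
Difference of the GN mean from DC replicate 1 (x axis) and from DC replicate 2 (y axis), on the log2 scale, for 51 granulocyte-restricted genes (red circles) and 25 dendritic-restricted genes (blue triangles), with the line of equal difference. Most circles lie below the line, with medians of 3.84 and 2.39, while the triangles follow it, with medians of -4.86 and -4.74. The triangles were chosen on the dimmer DC array, which leaves out genes dim on 1 DC array.

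MHC class II presentation genes were lower in GN at 12 of 16 measured members, with none higher and a median difference of -4.17. H2-Aa, the alpha chain of I-A, stood at 7.62 and 7.37 in GN and at 13.41 on both DC arrays (-5.92 ± 0.37, adjusted p = 6.26e-10). H2-Eb1, the beta chain of the class II molecule I-E, stood at 8.23 and 8.58 in GN and 13.17 and 13.11 in DC (-4.73 ± 0.25). H2-Eb2, a related beta chain gene, stood at 6.13 and 5.96 in GN and 11.77 and 11.54 in DC (-5.61 ± 0.13). The invariant chain gene Cd74, which escorts class II to the endosome, stood at 9.16 and 8.87 in GN and 13.37 and 13.31 in DC (-4.33 ± 0.38). Both GN arrays lay below both DC arrays at 14 of the 16 genes of the list, as they did at 5600 of all 19752 genes.

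The peptide editors and the master regulator of class II were lower in GN as well. H2-DMa, part of the complex that exchanges peptides, had 8.46 and 8.13 in GN and 12.30 and 12.31 in DC. H2-Oa and H2-Ob, the subunits of its modulator, differed by -4.75 ± 0.23 and -5.20 ± 0.17. Ciita, the coactivator that switches class II genes on, stood at 7.06 and 6.89 in GN and 11.97 and 11.77 in DC (-4.90 ± 0.12, adjusted p = 1.07e-14). Rfx5, a subunit of the factor on the X box to which Ciita is recruited, differed by -1.57 ± 0.13, with 8.36 and 8.07 in GN and 9.84 and 9.73 in DC. Its partners Rfxank (-0.32 ± 0.14) and Rfxap (0.23 ± 0.10) did not pass. Among lysosomal genes of the list, the thiol reductase Ifi30 was at 10.87 and 10.55 in GN and 13.07 and 13.09 in DC, the protease Lgmn differed by -2.16 ± 0.17, and Ctss, the cathepsin that trims the invariant chain, stood at 11.20 and 11.22 in GN and 11.84 and 11.90 in DC (-0.66 ± 0.14, not called). Counts and median were the same size with either DC array, at 12 genes and -4.19 against replicate 1 and 12 genes and -4.16 against replicate 2.

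**Figure D4:**
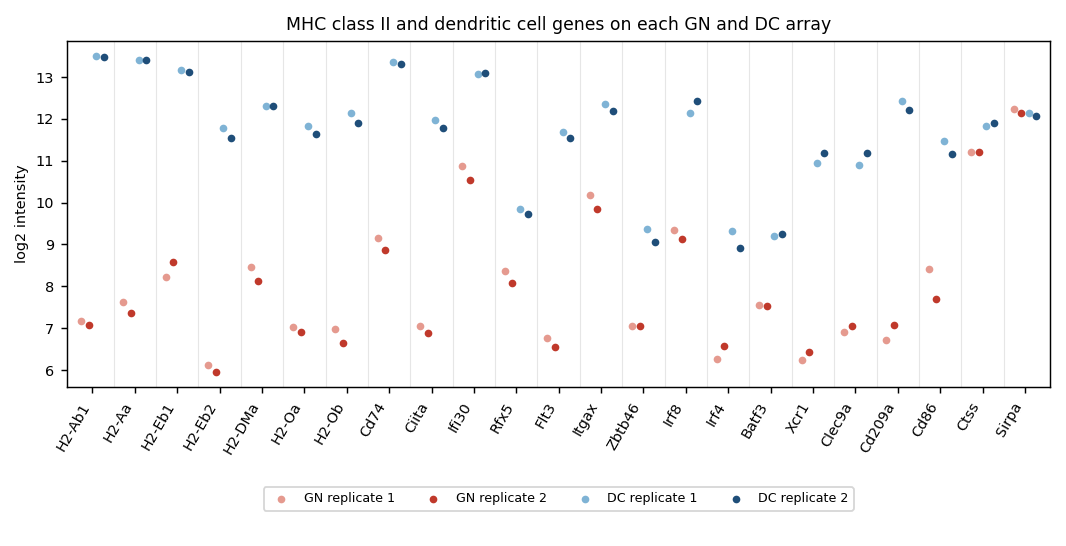
Log2 intensity of 23 MHC class II and dendritic cell genes on the 2 GN arrays (light and dark red for replicates 1 and 2) and the 2 DC arrays (light and dark blue). H2-Ab1 stands at 7.18 and 7.08 in GN and 13.49 and 13.48 in DC, while Sirpa stands at 12.24 and 12.15 in GN and 12.14 and 12.08 in DC.

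Dendritic lineage and subset genes were lower in GN at 34 of 44 measured members, with none higher and a median of -2.19. Dnase1l3, a secreted nuclease, had the largest difference of the list, -6.08 ± 0.19, with 7.05 and 6.51 in GN and 12.86 on both DC arrays. Genes of both conventional subsets were present in DC. Of the cross-presenting subset, the chemokine receptor Xcr1 stood at 6.23 and 6.44 in GN and 10.94 and 11.19 in DC, and Clec9a, a receptor for dead cells, at 6.90 and 7.06 in GN and 10.90 and 11.18 in DC. Of the other subset, the lectin genes Cd209a and Clec4a4 differed by -5.41 ± 0.20 and -4.17 ± 0.21. Zbtb46, a factor of conventional dendritic cells, stood at 7.06 and 7.05 in GN and at 9.36 and 9.07 in DC (-2.16 ± 0.12). Cd209a, the kynurenine pathway gene Kmo (-5.22 ± 0.15) and the peptidase gene Dpp4 (-5.01 ± 0.15) were also lower, with DC over GN ratios of 42.5 for Cd209a, 37.2 for Kmo and 32.3 for Dpp4.

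Several genes used as dendritic markers were bright in GN too. Sirpa, the receptor for the signal CD47, had a difference of 0.08 ± 0.16. Ly75, which encodes the uptake receptor DEC-205, stood at 9.83 and 9.92 in GN and 9.76 and 9.73 in DC (0.13 ± 0.15). Ppt1, a lysosomal thioesterase gene, differed by -0.31 ± 0.10. None of these passed the fold threshold, which does not show that their levels were equal.

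Dendritic-restricted genes, chosen without the GN arrays by the same 16-fold rule on the dimmer DC array, numbered 25. Of these, 20 were lower in GN, with a median difference over the set of -4.75, and Il1b was the 1 gene higher in GN. Apol7c, an apolipoprotein L family gene, stood at 6.43 and 6.75 in GN and 12.37 and 12.34 in DC (-5.76 ± 0.13). Havcr2, which encodes TIM-3, stood at 5.92 and 5.76 in GN and 11.89 and 11.78 in DC (-5.99 ± 0.16). No gene of this set differed by 2-fold or more between the DC arrays. The rule leaves out genes dim on 1 DC array, and few genes differed so at all. Of all 19752 genes, 141 were at least 2-fold above on replicate 2 and 2 at least 2-fold below. The choice used DC, so its size against GN is a description.

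The gene with the largest difference of all, on none of the lists, was Klri1, an NK complex lectin-like receptor, at 4.89 and 4.76 in GN and 12.11 and 11.87 in DC (-7.17 ± 0.17). Kynu, the kynureninase gene, stood at 5.80 and 5.78 in GN and 11.60 and 11.33 in DC, and Adam23, a lineage list gene of the ADAM family, at 6.06 and 6.22 in GN and 12.05 and 11.61 in DC. Rgs1, a regulator of G protein signals, stood at 5.67 and 5.34 in GN and 11.50 and 10.96 in DC. On the GN side, the meiosis gene Sycp2 led with 10.69 and 10.66 in GN, against 5.54 and 7.01 in DC (4.40 ± 0.29). It was followed by the long noncoding RNA gene Mirt2 (a mean of 12.01 in GN, and 6.79 and 8.80 in DC). Mgst1, a microsomal glutathione transferase, stood at 11.67 on both GN arrays and at 6.55 and 8.76 in DC.

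Markers of other cell types were read on the same arrays, because a sorted population can hold RNA of other cells. Beside the marker counts stand the shares of all genes, 5.77% called higher in GN and 11.1% called lower. Of 11 B cell markers 6 were lower in GN, and their summed linear intensity was 1183 and 1291 in GN, against 4074 and 5704 in DC. Ms4a1, the CD20 gene, stood at 5.54 and 5.86 in GN and 9.62 on both DC arrays, while Pax5 stood at 7.02 and 7.09 in GN and 7.12 and 7.06 in DC. Ighm, the heavy chain gene of IgM, stood at 7.64 and 7.76 in GN, against 7.69 on DC replicate 1 and 10.90 on DC replicate 2. It was called (-1.60 ± 0.58, adjusted p = 0.0265) only through replicate 2, with a difference of 0.00 from replicate 1, and its other probe sets gave -1.96 and -3.08. Igha, named after its values were seen, was called higher in GN against DC replicate 1 and lower against DC replicate 2, with 7.91 and 7.93 in GN and 6.64 and 11.91 in DC. The plasma cell gene Jchain, also named afterwards, stood at 6.05 and 5.60 in GN and 9.90 and 11.72 in DC.

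Of 13 red pulp macrophage markers 7 were lower in GN and 1 was higher. DC replicate 2 was brighter than replicate 1 at 12 of the 13, and summed intensities were 9584 and 9573 in GN, 10342 on DC replicate 1 and 15904 on DC replicate 2. Spic, the factor of red pulp macrophages, stood at 5.88 and 6.02 in GN and 8.42 and 9.08 in DC. The iron exporter gene Slc40a1 was the 1 member higher in GN, at 11.71 and 11.77, against 8.62 and 9.98 in DC. Among 9 monocyte markers 3 were lower in GN (4 lower and 1 higher with DC replicate 1 alone, and 5 lower with DC replicate 2 alone), and replicate 2 was brighter than replicate 1 at 8. Ccr2, the receptor of monocytes for the chemokine CCL2, stood at 7.72 and 7.61 in GN, against 8.68 and 9.89 in DC.

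Of 9 NK cell markers 5 were lower in GN, but 3 with DC replicate 1 alone. Klrd1, which encodes CD94, stood at 4.92 and 5.08 in GN and 10.64 and 10.61 in DC. Klrb1c, which encodes NK1.1, stood at 5.51 and 5.53 in GN, against 6.20 on DC replicate 1 and 7.22 on replicate 2. T cell markers summed to 1223 and 1262 in GN and 1253 and 1287 in DC, with 1 of 9 higher (Cd3d) and 1 lower (Cd5), neither of them with DC replicate 2 alone, and the CD3 gene Cd3e stood at 7.41 and 7.69 in GN and 7.65 and 7.63 in DC. Of 8 plasmacytoid dendritic cell markers 3 were lower in GN (Spib, Tcf4 and Ccr9). Of 10 markers of eosinophils, basophils and mast cells 1 was higher (2 with DC replicate 1 alone, and 1 higher and 1 lower with DC replicate 2 alone). It was Siglecf, with 8.60 on both GN arrays and 7.33 and 7.38 in DC. The counts of this list and of the T cell markers lay near the 5.77% higher and 11.1% lower of all genes. Of 6 erythroid and platelet markers none was called at an adjusted p under 0.05 and 2-fold (2 were higher with DC replicate 1 alone). The part of these cells in any result below was not tested.

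Receptor chains and signalling genes of the IFNg pathway mostly differed by less than 2-fold. Of 19 measured genes none was called higher and 2 were lower in GN, and the median difference of 0.09 lay near the 0.18 of all genes. Of all genes 5.77% were called higher and 11.1% lower, the scale for list counts here and below. The lower count of this list lay near that share. Ifngr1 stood at 10.71 and 10.89 in GN and 11.52 on both DC arrays (-0.72 ± 0.11), and Ifngr2 at 11.49 and 11.41 in GN and 11.43 and 11.38 in DC (0.05 ± 0.12). The kinase Jak1 was 0.86 ± 0.08 above DC, with 12.14 and 12.02 in GN, and Jak2 was -0.72 ± 0.12 from DC, with 11.21 and 11.06 in GN. All 4 stayed under 2-fold. Irf1, the factor induced first by IFNg, stood at 12.96 and 12.86 in GN and 12.39 and 12.37 in DC. Its difference was 0.53 ± 0.10 on the brighter probe set and 1.53 on the other.

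The 2 called genes of this list were Irf8 and Tyk2. Irf8, a factor required for cross-presenting dendritic cells and inducible by IFNg, stood at 9.34 and 9.13 in GN and 12.14 and 12.42 in DC (-3.05 ± 0.16, adjusted p = 9.31e-11). Tyk2, a kinase of the type I interferon and IL-12 receptors, stood at 8.59 and 8.23 in GN and 9.89 and 9.96 in DC (-1.51 ± 0.13). Stat2 (0.09 ± 0.12), Irf9 (0.48 ± 0.09) and Irf7 (0.54 ± 0.12), which act with type I interferon, did not pass 2-fold.

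Presentation on MHC class I gave a median difference of -0.11, with 5 of 20 genes lower in GN and none higher. All 5 were chaperones or trimming and presenting molecules. H2-M3, a class I molecule that presents formylated bacterial peptides, stood at 7.74 and 7.89 in GN and 10.30 and 10.13 in DC (-2.40 ± 0.13). The chaperones of class I assembly Pdia3 (-1.74 ± 0.13), Calr (-1.49 ± 0.10) and Canx (-1.36 ± 0.12) followed, and Erap1, the peptidase that trims peptides in the endoplasmic reticulum, was at -1.04 ± 0.15 (not called against DC replicate 2 alone). The loading protein Tapbp stood at 11.61 and 11.53 in GN and 11.48 and 11.51 in DC, and the immunoproteasome subunit Psmb10 at 11.03 and 11.16 in GN and 11.05 and 11.33 in DC. The median of the class II genes was -4.17, beside -0.11 for class I.

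Interferon-inducible GTPases, which attack the vacuoles of intracellular microbes or, for the Mx proteins, viral particles, were split. Of 15 measured members 7 were lower in GN and 1 was higher, with a median of -0.66. Mx1 stood at 6.34 and 5.92 in GN and 9.81 and 9.95 in DC (-3.76 ± 0.24), and Mx2 at 5.27 and 5.28 in GN and 8.07 and 8.10 in DC. The guanylate-binding protein genes Gbp8 (8.53 and 8.31 in GN, 12.22 and 12.02 in DC) and Gbp4 (9.57 and 9.34 in GN, 12.82 and 12.57 in DC) were also lower. Iigp1 and Gm4951, of the immunity-related GTPases, differed by -2.10 ± 0.19 and -2.11 ± 0.19. Gbp3 was the 1 member higher in GN, at 11.67 and 11.54 against 10.51 and 10.67 in DC (1.02 ± 0.14), and it lost its call against DC replicate 2 alone. Irgm1, whose promoter is shown above, stood at 12.53 on both GN arrays and at 12.10 and 12.18 in DC (0.39 ± 0.10).

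Type I interferon-stimulated genes had the opposite tilt, with 11 of 46 higher in GN, 1 lower, and a median of 0.56 beside 0.18 for all genes. Mx1 and Mx2, dimmer in GN, were counted with the GTPases and not here, so the contrast depends in part on how genes were assigned to lists. Slfn4, a Schlafen gene of myeloid cells, had the largest difference, at 13.20 and 13.34 in GN, against 9.91 on DC replicate 1 and 11.51 on DC replicate 2 (2.56 ± 0.31). Slfn1 stood at 12.62 and 12.68 in GN and 9.69 and 10.95 in DC. Rsad2, which encodes viperin, an antiviral radical enzyme, stood at 12.41 and 12.24 in GN and 10.12 and 10.74 in DC (1.90 ± 0.28, adjusted p = 1.69e-05). Its genomic neighbour Cmpk2, a nucleotide kinase gene, stood at 11.75 and 11.74 in GN and 9.45 and 10.10 in DC, and Oas3, a sensor of double-stranded RNA, at 12.47 and 12.44 in GN and 10.19 and 10.85 in DC. In each of these 5 genes DC replicate 2 lay between DC replicate 1 and GN.

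The median of the list was 0.61 against DC replicate 1 and 0.54 against DC replicate 2, beside 0.17 and 0.18 for all genes. Both GN arrays lay above both DC arrays at 41 of the 46 genes, as they did at 10477 of all 19752 genes. Rsad2 differed by 1.59 from DC replicate 2. DC replicate 2 was brighter than replicate 1 at 38 of the 46. Usp18, the protease that removes ISG15 (11.78 and 11.84 in GN, 11.78 and 11.85 in DC), Zbp1 (0.14 ± 0.14) and Dhx58 (-0.08 ± 0.15) did not pass. Phf11d, a gene of the nuclear PHF11 family, was the 1 member lower, at 6.79 and 6.90 in GN against 10.52 and 10.67 in DC (-3.75 ± 0.11). Rsad2 and Irgm1 both carry the response element in their promoters, and their differences were 1.90 and 0.39.

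**Figure D5:**
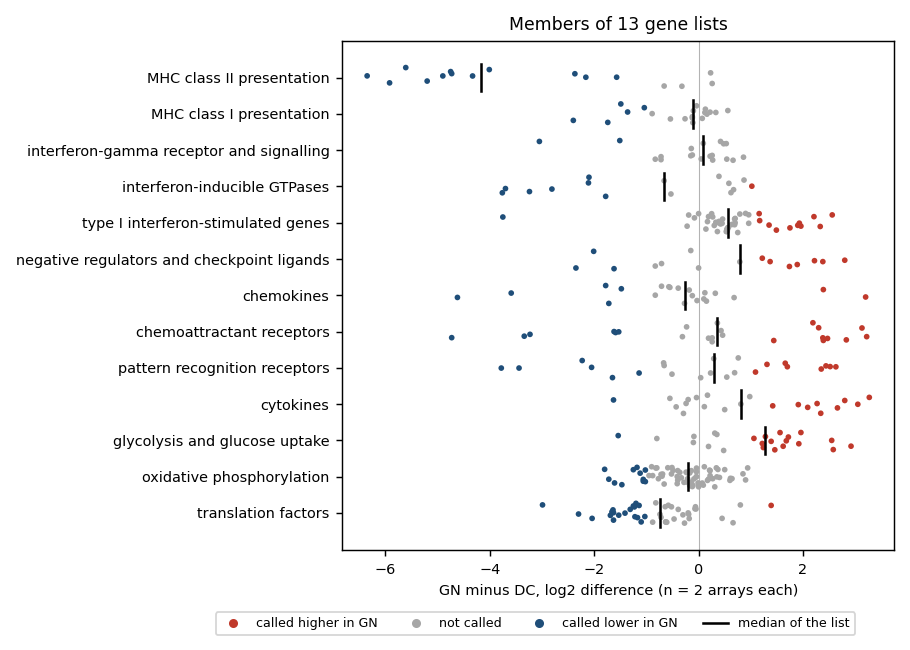
GN minus DC on the log2 scale for each measured member of 13 gene lists, coloured by call, with the median of each list as a bar. Class II presentation has a median of -4.17 with 12 genes lower, type I interferon-stimulated genes 0.56 with 11 higher, and glycolysis 1.28 with 15 higher.

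Among 15 negative regulators and checkpoint ligands, 7 were higher in GN and 3 lower. The inhibitors of cytokine signalling Socs3 (12.24 and 12.10 in GN, 9.80 and 10.11 in DC), Socs1 (11.84 and 11.58 in GN, 10.24 and 10.45 in DC) and Cish (10.41 and 10.08 in GN, 7.50 and 8.21 in DC) were higher. Socs2 was lower, with 7.90 and 7.62 in GN and 9.90 and 9.65 in DC. Inhibitors of IL-1 and IL-18 were higher too. Il1rn, the IL-1 receptor antagonist, stood at 11.53 and 11.55 in GN and 8.03 and 9.46 in DC (2.80 ± 0.27), and Il18bp at 12.09 and 12.08 in GN and 10.01 and 10.39 in DC (1.89 ± 0.12). Pdcd1lg2, the ligand PD-L2, was lower at 6.66 and 6.54 in GN against 8.95 on both DC arrays, and so was Il10ra, at -1.62 ± 0.13.

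Chemokine genes were lower in GN at 5 of 21 members and higher at 2, beside 11.1% of all genes lower and 5.77% higher. Ccl5, an attractant of T cells, stood at 8.36 and 7.83 in GN and 12.83 and 12.60 in DC (-4.62 ± 0.28). Cxcl16, the membrane-bound ligand of CXCR6, stood at 6.01 and 5.73 in GN and 9.49 and 9.43 in DC. Cxcl9, a ligand of CXCR3 and a target of IFNg, stood at 11.55 and 11.29 in GN and 13.20 on both DC arrays (-1.78 ± 0.31, adjusted p = 0.000115). The neutrophil attractant Cxcl2 was higher, at 9.98 and 9.57 in GN against 6.01 and 7.15 in DC (3.20 ± 0.27), and so was Ccl6, at 12.06 and 11.90 in GN against 8.74 and 10.44 in DC. Cxcl11 (-0.03 ± 0.13) and Ccl7 (0.10 ± 0.26) did not pass.

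The receptors for attractants were divided between the cells, with 9 of 23 higher in GN and 6 lower. Receptors of complement and lipid signals were among the higher ones. C5ar1, the receptor of complement C5a, stood at 11.31 and 11.34 in GN and 7.25 and 8.96 in DC (3.22 ± 0.33), and Ltb4r1, the receptor of leukotriene B4, at 8.96 and 9.80 in GN and 6.38 and 6.72 in DC (2.83 ± 0.21). The chemokine receptor Ccr1 had 11.98 and 12.09 in GN and 8.02 and 9.79 in DC, and Cxcr4, which holds neutrophils in the marrow, 11.78 and 11.71 in GN and 9.09 and 9.61 in DC. Among the lower ones were Ccr2, given above, and receptors that steer dendritic cells. Ccr7, which leads dendritic cells to T cell zones, stood at 7.92 and 7.84 in GN and 11.32 and 11.14 in DC (-3.34 ± 0.13), and Gpr183, an oxysterol receptor that positions dendritic cells in the spleen, at 6.84 and 6.72 in GN and 10.29 and 9.73 in DC.

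Of 23 pattern recognition genes 8 were higher in GN and 6 lower. Higher were sensors of the cell surface, Tlr8 and Nod2. Tlr4, the receptor of lipopolysaccharide, stood at 9.93 and 10.18 in GN and 7.36 and 7.88 in DC (2.44 ± 0.18), and its coreceptor Cd14 at 10.11 and 9.98 in GN and 6.92 and 7.91 in DC. Tlr2 (1.70 ± 0.17), Tlr6 (1.66 ± 0.18) and the beta-glucan receptor Clec7a (2.35 ± 0.31) were higher as well. Lower were nucleic acid sensors and Tlr1. The endosomal receptors Tlr3, for double-stranded RNA, and Tlr9, for unmethylated DNA, stood at 6.85 and 6.67 and at 8.15 and 8.08 in GN, against 10.39 and 10.68 and 11.56 on both arrays in DC. The differences were -3.78 ± 0.14 and -3.44 ± 0.14. Tlr7, a sensor of single-stranded RNA, was at -2.05 ± 0.25, the DNA sensor Aim2 at -2.23 ± 0.15 and the adaptor Sting1 at -1.14 ± 0.11.

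Inflammasome and cell death genes were higher in GN at 6 of 29 members and lower at 3. Of all genes 5.77% were called higher and 11.1% lower, so the lower count lay near the background. Il1b stood at 12.87 and 12.81 in GN and 11.20 and 11.63 in DC (1.42 ± 0.14), while Il18 stood at 8.77 and 8.68 in GN and 8.62 and 8.91 in DC. Casp4, the caspase that senses cytosolic lipopolysaccharide, had 11.95 and 12.12 in GN and 10.46 and 10.65 in DC, and the death receptor gene Fas 11.46 and 11.30 in GN and 8.58 and 9.01 in DC (2.59 ± 0.13). Nlrc4, the inflammasome receptor for flagellin, was lower, at 5.43 and 5.45 in GN against 8.70 and 8.36 in DC (-3.08 ± 0.18). Bcl2, which blocks apoptosis, was at -1.05 ± 0.16 and its relative Bcl2l1 at 1.41 ± 0.18. Of 16 oxidase and microbicidal genes 3 were higher in GN and 1 lower, beside the same shares of all genes. Acod1, which makes itaconate, stood at 12.65 and 12.41 in GN and 8.92 and 10.27 in DC (2.93 ± 0.27), the oxidase subunit Ncf1 was at 1.09 ± 0.18, and the membrane subunit Cyba stood at 12.12 and 12.18 in GN and 12.22 and 12.19 in DC. The catalase gene Cat was lower, with 8.92 and 8.68 in GN and 11.63 and 11.60 in DC.

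Genes for contact with T cells were lower in GN at 8 of 16 members and higher at 1. The costimulatory ligand Cd86 stood at 8.41 and 7.69 in GN and 11.47 and 11.17 in DC (-3.28 ± 0.24), and Cd40, the receptor for help from T cells, at 7.82 and 7.95 in GN and 11.89 and 11.75 in DC (-3.94 ± 0.13). Slamf7, a receptor of the SLAM family, stood at 6.25 and 6.17 in GN and 12.26 and 12.21 in DC (-6.03 ± 0.13). The 1 member higher in GN was Tnfsf13b, the B cell survival factor BAFF, at 10.33 and 10.14, against 6.93 and 7.43 in DC (3.05 ± 0.16, adjusted p = 7.82e-11).

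Cytokine genes leaned to GN, with 9 of 21 higher and 1 lower. Il1f9, which encodes IL-36 gamma, stood at 12.41 and 12.45 in GN and 8.24 and 10.07 in DC (3.27 ± 0.34), and Osm, oncostatin M, at 10.92 and 10.51 in GN and 7.69 and 8.43 in DC (2.66 ± 0.20). Tnfsf14, the ligand LIGHT, and Csf1, the macrophage growth factor, were at 2.34 ± 0.13 and 2.27 ± 0.15. Il12b, a subunit of IL-12 and IL-23, was lower, with 6.97 and 6.88 in GN and 8.26 and 8.83 in DC. Of 20 receptors of growth factors and cytokines 7 were higher and 4 lower. Il1rap, Il1r2 and Il18r1 of the IL-1 receptor family were at 3.18 ± 0.29, 3.12 ± 0.21 and 2.96 ± 0.17. Il1r2 stood at 11.23 and 11.26 in GN, against 7.63 on DC replicate 1 and 8.63 on DC replicate 2. Kit, the receptor of stem cell factor, was lower at 7.94 and 7.65 in GN against 12.13 and 11.96 in DC (-4.25 ± 0.14), as was Il21r at -3.61 ± 0.11.

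Transcription factors of the myeloid lineage fell on both sides, with 10 of 37 higher in GN and 13 lower. The C/EBP family was represented on the GN side. Cebpb stood at 10.81 and 10.39 in GN and 7.93 and 8.53 in DC (2.37 ± 0.19), Cebpd at 8.82 and 8.65 in GN and 6.49 and 6.84 in DC, and Cebpe, which is needed for secondary granules, at 9.21 and 9.34 in GN and 7.20 and 7.53 in DC (1.91 ± 0.14). The zinc finger factor Klf2 (2.41 ± 0.18), the AP-1 member Fosl2 (2.73 ± 0.22) and Id1 (2.46 ± 0.29) were higher as well. On the DC side were Irf8, Irf4 (6.26 and 6.57 in GN, 9.31 and 8.92 in DC), Spib (-2.43 ± 0.17), Runx3 (-2.92 ± 0.17) and Myc (7.15 and 7.02 in GN, 9.46 and 9.51 in DC). Ikzf1, a factor of many blood cells, stood at 11.16 and 11.13 in GN and 11.15 and 11.18 in DC.

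C-type lectins were split between 10 members higher in GN and 8 lower, of 28. Higher were the Dectin-2 cluster receptors Clec4e and Clec4d, which bind mycobacterial and fungal glycolipids, at 3.58 ± 0.32 and 3.40 ± 0.30, and Clec5a at 3.67 ± 0.39. Clec4e stood at 11.83 on both GN arrays and at 7.48 and 9.01 in DC. Lower were the DC receptors given above, Clec2i (-3.11 ± 0.20) and the mannose receptor Mrc1, with 6.38 and 6.46 in GN, against 7.62 on DC replicate 1 and 9.18 on DC replicate 2. Of 9 Fc receptor genes 2 were higher in GN, Fcgr3 (12.56 and 12.51 in GN, 9.73 and 10.84 in DC) and Fcgr2b (1.63 ± 0.23), and Fcrla was lower. Of 21 integrins and selectin ligands 4 were higher and 3 lower, the latter near the 11.1% of all genes called lower. Itgam, which encodes CD11b, stood at 12.11 and 12.26 in GN and 9.57 and 10.31 in DC (2.24 ± 0.21), and Itgav at 8.72 and 8.75 in GN and 10.51 on both DC arrays (-1.77 ± 0.12).

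Lipid mediators and lysosomal proteases also differed by gene. Alox5, which starts leukotriene synthesis, stood at 11.95 and 11.77 in GN and 7.78 and 9.19 in DC (3.37 ± 0.28), and the prostaglandin receptor Ptger2 at 9.71 and 9.55 in GN and 6.77 and 7.28 in DC. Hpgds and Hpgd, which make prostaglandin D2 and break down prostaglandins, were lower at -2.61 ± 0.19 and -2.42 ± 0.24. In all, 5 of 19 eicosanoid genes were higher and 2 lower, the latter near the 11.1% of all genes called lower. Of 22 cathepsin and lysosomal protease genes 8 were higher (5 against DC replicate 2 alone) and 6 lower. Ctse, an aspartic protease, stood at 11.23 and 11.02 in GN and 8.14 and 9.03 in DC, while the cysteine proteases Ctso, Ctsc and Ctsh were at -2.11 ± 0.13, -1.84 ± 0.12 and -1.77 ± 0.16.

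Genes of glycolysis and glucose uptake were higher in GN at 15 of 23 members and lower at 1, with a median of 1.28. Glycolysis is the main energy source of mature neutrophils, which hold few mitochondria. Pygl, which releases glucose from glycogen, stood at 11.57 and 11.69 in GN and 8.32 and 9.10 in DC (2.92 ± 0.19). Slc16a3, the lactate exporter MCT4, stood at 10.83 and 10.87 in GN and 8.13 and 8.40 in DC, and the glucose transporter gene Slc2a1 at 12.60 and 12.43 in GN and 10.34 and 10.78 in DC. The hexokinases Hk1 and Hk3 were at 1.72 ± 0.11 and 1.92 ± 0.20. Of the bifunctional enzymes that set the level of fructose 2,6-bisphosphate, Pfkfb4 was higher (10.88 and 10.91 in GN, 8.14 and 8.55 in DC) and Pfkfb3 lower (8.75 and 8.55 in GN, 10.23 and 10.15 in DC). Ldha, lactate dehydrogenase, had 11.81 and 12.02 in GN and 11.67 and 11.77 in DC and did not pass.

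Genes of oxidative phosphorylation had a median of -0.20, with 11 of 73 lower in GN and none higher at an adjusted p under 0.05 and 2-fold. The count was 7 lower and 1 higher against DC replicate 1 alone, 12 lower against DC replicate 2 alone, and 6 lower after quantile normalization. Of all genes 11.1% were called lower, so that the share of this list lay near the background. Atp5g2, a subunit of ATP synthase, stood at 9.74 and 9.75 in GN and 11.51 and 11.58 in DC (-1.80 ± 0.11), and Ndufs3, of complex I, at 7.85 and 7.99 in GN and 9.45 and 9.60 in DC. Translation factors were lower at 19 of 43 members and higher at 1, with a median of -0.74. Eif3e and Eif3b, of the initiation complex eIF3, stood at 7.41 and 7.06 and at 7.88 and 7.95 in GN, against 10.24 and 10.20 and 9.90 and 10.01 in DC. The 1 higher gene was Eif4ebp1, a repressor of cap-dependent translation, at 10.54 and 10.41 in GN against 8.94 and 9.23 in DC (1.39 ± 0.13).

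Immediate early and stress genes were higher in GN at 4 of 25 members and lower at 4. Nr4a3 stood at 6.75 and 6.34 in GN and 10.05 and 9.62 in DC (-3.29 ± 0.21), and Nr4a2 at 7.30 and 7.59 in GN, against 10.57 on DC replicate 1 and 9.44 on DC replicate 2. Of the 25 genes 3 were brighter on DC replicate 2 than on replicate 1. Junb, Ier2 and Jund were higher at 1.61 ± 0.42, 1.30 ± 0.20 and 1.22 ± 0.22. Against DC replicate 1 alone 4 members were higher and 7 lower, and against replicate 2 alone 5 were higher and 4 lower. Cell cycle genes were lower at 3 of 23 members (2 against DC replicate 1 alone and 4 against replicate 2 alone), with none higher, a share near the 11.1% of all genes called lower. The replication genes Mcm6, Pcna and Mcm2 were at -1.54 ± 0.13, -1.38 ± 0.09 and -1.03 ± 0.13, while the mitotic genes Mki67 (9.30 and 9.60 in GN, 9.36 and 9.52 in DC) and Aurkb (8.95 and 8.83 in GN, 8.76 and 8.90 in DC) overlapped between the cells.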

How the data were processed

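RNA of sorted cells was hybridised to Affymetrix Mouse Gene 1.0 ST arrays, 1 colour, 18 in all. The deposited values were intensity on a linear scale, 1 per probe set. The submitters' processing notes name RMA and Affymetrix Power Tools, without a version. RMA corrects background and normalizes before it sums probes, and it shrinks differences between dim signals, so a fold from a dim gene is likely too small. The number of arrays limits the precision. Of 24922 probe sets, 21425 had 1 gene symbol in GEO's platform annotation, 1399 had several and 2098 had none listed. Those with 1 symbol were used, with symbols updated by Entrez number against RefSeq (GRCm38.p6, 21347 matched). For 921 genes with several probe sets the brightest was taken, which left 19752 genes.

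The deposited intensity was put on a log2 scale. GN minus DC was then tested two-sided as a contrast in limma 3.58.1 (R 4.3.3), in 1 linear model of the 18 arrays that gave every population its own mean, with a mean-variance trend in eBayes, with 9 residual and 7.69 prior degrees of freedom and Benjamini-Hochberg adjustment over all genes. A gene was called at an adjusted p under 0.05 and at least 2-fold. Values against 1 DC array come from the same fit without the other DC array. On simulated data 99% of 100 genes changed by 1.5 on the log2 scale and 100% of 100 changed by 3 were recovered, with 1 false call. The simulation gave each gene the same spread in every population. It therefore does not cover genes such as Ly6g, whose DC arrays lay farther apart than the GN arrays.

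The members and the 37 gene lists were chosen with earlier results of these data known, and no list was tested as a set. Named genes are the 12 with the largest difference each way, and up to 6 called members of each list each way with 3 uncalled ones nearest 0. They also include every measured member of the gate, neutrophil, class II and IFNg signalling lists, and the 8 brightest genes of each restricted set. All of them were followed through the alternatives, but the text gives values for only some. Alternatives covered scaling, offset, filter, spread, probe sets and each array left out. Whether the replicate numbers pair the samples is not given in the labels, and the samples were treated as unpaired. Deviations of GN replicate 1 and DC replicate 1 correlated at 0.028 over all genes. That value rests on a single deviation per population, so it cannot show whether arrays of the same number shared an animal or a sort.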

Additional observations from a re-analysis of the deposited data

How the results depend on the processing

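Over the 16 alternatives between 2853 genes (32 added before the log2) and 3553 genes (a test against 1.5-fold) were called, and no gene called with all arrays was called in the opposite direction under any of them. Leaving out 1 array gave 3246 to 3426 called genes, 1069 to 1239 higher and 2137 to 2240 lower. The replicate number as a block gave 3340 genes in the fit of 18 arrays and 3341 in a fit of the 4 arrays, and it changed no call of a named gene. Quantile normalization gave 1336 higher and 1971 lower genes, and centring of the medians 1219 and 2079. Of 396 named genes, 276 were called and 28 changed their call in some alternative, most of them near 2-fold. The difference of Ighm, -1.60 with all arrays, was 0.00 without DC replicate 2 and -3.21 without DC replicate 1, and the cause was not tested. With the dimmer genes left out, 2723 of 9876 were called. Genes dim in both cells have little signal over background, which limits what these arrays can show of them.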
